A study of Rattus norvegicus with 12 samples.

Results

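Matrix proteoglycans are secreted proteins that carry sulfated sugar chains and fill the space between the cells of the heart. The genes described here are 10 by name. They are the small leucine-rich proteoglycan genes Dcn, Bgn, Aspn, Lum, Fmod, Prelp, Ogn and Podn, the large hyaluronan-binding proteoglycan gene Vcan, and Hapln1, which encodes its link protein. A gene was taken by its name in the deposited gene table, where 9 of the 10 names have a row among 16898 genes. No row used here carries the name Podn, so podocan was not analysed here. Of these 9, 7 are small leucine-rich and 2 are versican and its link protein, and no name has more than 1 row. The Ensembl gene identifiers in the table are ENSRNOG00000004554 for Dcn, ENSRNOG00000004610 for Lum, ENSRNOG00000055962 for Bgn and ENSRNOG00000029212 for Vcan, the genes on which the results turn.

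The study took heart tissue of Sprague Dawley rats at 2 postnatal ages and made 12 libraries: 6 after pull-down of RNA carrying N6-methyladenosine (m6A), and 6 of the input to it. The 6 input libraries are used here, 3 of older hearts and 3 of day 0 hearts, with no treatment or genetic change in either group. The age of the older hearts reads day 7 on the labels but 10D on the table's columns, so their exact age is not stated here. The labels do not say which part of the heart was taken, nor whether each library is a different animal, so the p-values reflect the spread among these libraries, which may be technical.

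Small leucine-rich proteoglycans have a core of leucine-rich repeats. Decorin, lumican, fibromodulin and others bind collagen and govern how fibrils assemble and how thick they grow, and decorin and biglycan also bind growth factors such as TGF-beta. Versican binds the long sugar hyaluronan, and the link protein HAPLN1 locks the 2 together. Versican and hyaluronan make up the loose, hydrated matrix of the embryonic heart, the cardiac jelly, and mice without Vcan or Hapln1 have defects of the developing heart and its valves.

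Levels are given in FPKM, which divides reads by the gene's length and the depth of the library, so they can be compared between genes. Library totals recovered from the steps of these values were 15868418, 16097510 and 15027254 reads in the older hearts and 14613968, 13489816 and 16297533 reads at day 0. Day 0 library 3 stood apart. The lung genes Sftpc, Sftpb, Sftpa1 and Scgb1a1 had 23.1, 9.44, 4.88 and 2.50 FPKM there and were listed at 0 in the other 5 libraries. Its 3 skeletal muscle markers with a row (Myh1, Tnnt3 and Actn3) summed to 66.7 FPKM, against at most 4.94 in the older libraries and 0.494 in the other day 0 libraries. Results are therefore also given without that library. The source of these transcripts and their part in the results were not tested. Cardiomyocyte markers were high throughout, with Tnnt2 at 5225 to 6759 FPKM in older hearts and 5864 to 6675 at day 0, and 1 of the 6 tested, Myh6, was called higher in older hearts.

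Of the 13117 genes averaging 1 FPKM or more, limma on log2(FPKM + 1) called 462 higher (3.52%) and 752 lower (5.73%) in older hearts at a Benjamini-Hochberg adjusted p under 0.05. The split of 38.1% higher became 57.1% after centring each library on its median and 56.4% after quantile normalization. With 1 library left out, 1.31%, 1.11% and 1.3% of genes were called higher and 2.01%, 1.66% and 2.02% lower without older library 1, 2 and 3. The shares were 1.8%, 1.72% and 3.69% higher and 2.17%, 1.91% and 4.92% lower without day 0 library 1, 2 and 3. After median centring they were 4.7% higher and 3.54% lower, and limma's voom on recovered reads called 5.53% higher and 8.43% lower. The median gene stood at a log2 fold change of -0.11. Each log2 fold change is the older mean less the day 0 mean on this scale, where the pseudocount shrinks differences of low genes.

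In older hearts decorin RNA was 3.09-fold higher, lumican RNA 2.75-fold and biglycan RNA 1.505-fold higher, and versican RNA was 2.32-fold lower, as ratios of mean FPKM. Dcn, Lum and Bgn were called higher and Vcan was called lower. Prelp, Fmod, Ogn and Hapln1 were tested and not called, and Aspn, with a mean of 0.526 FPKM, was too low to be tested. The older libraries lay wholly above the day 0 libraries in 5 tested members (Dcn, Lum, Bgn, Prelp and Fmod), a pattern held by 12.2% of all tested genes, and wholly below in 2 (Vcan and Hapln1), a pattern held by 20.3%. Members that passed the filter through the age at which they are high had to differ, as is the case for Hapln1 (mean 0.617 FPKM in older hearts) and Fmod (mean 0.897 FPKM at day 0), so these counts are a description.

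**Figure D1:**
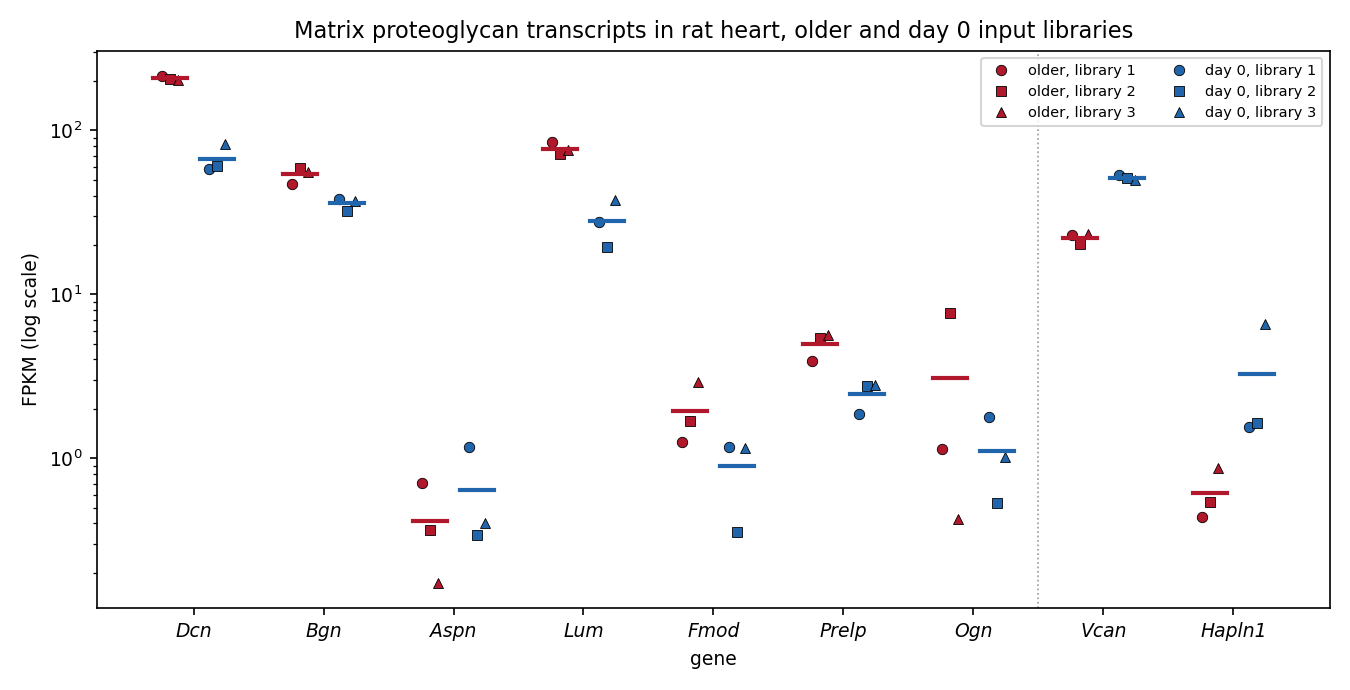
FPKM of the 9 genes with a row (log axis) in each input library, older hearts in red left of day 0 hearts in blue; marker shapes are library numbers and bars are means of 3 libraries. Small leucine-rich genes lie left of the dotted line; the older libraries lie above day 0 for Dcn, Bgn, Lum, Fmod and Prelp, below it for Vcan and Hapln1, and overlap with it for Aspn and Ogn.

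Class I of the family holds decorin, biglycan and asporin. Dcn, whose product carries a single chondroitin or dermatan sulfate chain and coats collagen fibrils, had 214, 206 and 203 FPKM in older hearts, against 58.2, 60.3 and 82.8 FPKM at day 0. The groups did not overlap, and day 0 library 3 was the highest of the day 0 values. Dcn averaged 208 ± 5.80 FPKM in older hearts and 67.1 ± 13.6 FPKM at day 0 (SD, n = 3 each; log2 fold change 1.63, SE 0.14, limma adjusted p = 0.00153). It was the most abundant member in every library, and its rank over the 16898 listed genes ran from 216 to 1131. Without day 0 library 3 its log2 fold change was 1.79 (limma adjusted p = 0.00168), and it stayed past the threshold with any 1 of the 6 libraries left out.

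Bgn, the X-linked gene of biglycan, whose product carries a pair of such chains, had 47.3, 58.8 and 55.8 FPKM in older hearts, against 38.3, 32.0 and 37.3 FPKM at day 0. The groups did not overlap, and older library 1 was the lowest of its age. The means were 54.0 ± 6.003 FPKM in older hearts and 35.9 ± 3.38 FPKM at day 0 (SD, n = 3 each; log2 fold change 0.57, SE 0.13, limma adjusted p = 0.0403). This call was lost whichever library was left out (limma adjusted p from 0.0570 to 0.135, and 0.0586 without day 0 library 3), while the estimate stayed between 0.50 and 0.67.

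Aspn encodes asporin, a relative of decorin with a run of aspartates near its start. It had 17, 9 and 4 reads in the older libraries, against 26, 7 and 10 reads at day 0, which correspond to 0.702, 0.367 and 0.175 FPKM in older hearts and 1.17, 0.340 and 0.402 FPKM at day 0. The groups overlapped. The exact Poisson intervals at 95%, which cover counting error only, ran from 4 to 17 reads for older library 2 and from 5 to 18 for day 0 library 3. They did not overlap between the lowest and highest values, older library 3 (1 to 10 reads) and day 0 library 1 (17 to 38). Within day 0 they did not overlap between library 1 and library 2 (3 to 14). These pairs were picked after seeing the values, so they describe the spread and are no test of it. Tested without the filter on low genes, its log2 fold change was -0.19 (limma adjusted p = 0.734).

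Class II holds lumican, fibromodulin and PRELP, which can carry keratan sulfate chains or, in the case of PRELP, bind heparan sulfate. Lum had 85.3, 71.3 and 75.4 FPKM in older hearts, against 27.4, 19.3 and 37.7 FPKM at day 0. Every older value was well above every day 0 value, with day 0 library 3 again the highest of its age. The means were 77.3 ± 7.21 FPKM in older hearts and 28.1 ± 9.23 FPKM at day 0 (SD, n = 3 each; log2 fold change 1.47, SE 0.23, limma adjusted p = 0.0106). Without day 0 library 3 the log2 fold change was 1.70 (limma adjusted p = 0.00824). The call was narrowly lost without older library 1, 2 or 3 or day 0 library 1, with limma adjusted p from 0.0507 to 0.0595.

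Prelp had 3.91, 5.38 and 5.67 FPKM in older hearts, against 1.85, 2.76 and 2.80 FPKM at day 0. The groups did not overlap, and the ratio of means was 2.02, yet Prelp was not called (log2 fold change 0.79, SE 0.27, limma adjusted p = 0.123). The 95% interval of the difference, 0.14 to 1.43, was not adjusted for the number of genes tested. The authors' deposited table gives Prelp a log2 fold change of 1.13 with an adjusted p of 0.0270. With a pseudocount of 0.1, which shrinks low genes less, limma gave 0.99 (adjusted p = 0.126). Fmod, the gene of fibromodulin, had 71, 96 and 155 reads in older libraries, against 61, 17 and 67 reads at day 0. In FPKM these were 1.26, 1.68 and 2.91 in older hearts and 1.18, 0.355 and 1.16 at day 0, so older library 1 lay just above the highest day 0 value. Fmod was not called (log2 fold change 0.63, 95% interval -0.36 to 1.62, limma adjusted p = 0.397).

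Class III has Ogn, the gene of osteoglycin, also called mimecan. It had 1.14, 7.67 and 0.427 FPKM in older hearts, against 1.78, 0.531 and 1.02 FPKM at day 0. Older library 2 alone was high, with 327 reads against 48 and 17 in the other older libraries, and its exact Poisson interval at 95% of 293 to 364 reads did not reach them. The groups overlapped and Ogn was not called (log2 fold change 0.54, 95% interval -1.08 to 2.16, limma adjusted p = 0.669). Without older library 2 the estimate turned to -0.23 (limma adjusted p = 0.834), so the direction rests on that library.

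Vcan moved the other way from the called small leucine-rich genes. It had 22.9, 20.2 and 23.4 FPKM in older hearts, against 53.3, 51.1 and 49.8 FPKM at day 0. Both ages were tight and far apart, and day 0 library 3 lay close to the others. Vcan averaged 22.2 ± 1.74 FPKM in older hearts and 51.4 ± 1.77 FPKM at day 0 (SD, n = 3 each; log2 fold change -1.18, SE 0.12, limma adjusted p = 0.00219). It stayed past the threshold with any 1 library left out (limma adjusted p from 0.00720 to 0.0184). With 2978 to 3338 reads in older libraries and 6324 to 7447 at day 0, it was among the best counted members. The length behind its FPKM is 9174 bases, against 1862 for Dcn.

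The first 250 bases before and 50 after the start of Lum and Vcan are shown because these are the genes called in opposite directions for which the promoter table has an entry. They come from RefSeq with build GRCr8, chr7:34245456-34245755 on the plus strand for Lum and chr2:22595906-22596205 on the minus strand for Vcan, and are written 5′ to 3′ with capitals for matches on either strand to the CCAAT box, to the GC box letters GGGCGG and to the TATA box letters TATAAA.
Lum: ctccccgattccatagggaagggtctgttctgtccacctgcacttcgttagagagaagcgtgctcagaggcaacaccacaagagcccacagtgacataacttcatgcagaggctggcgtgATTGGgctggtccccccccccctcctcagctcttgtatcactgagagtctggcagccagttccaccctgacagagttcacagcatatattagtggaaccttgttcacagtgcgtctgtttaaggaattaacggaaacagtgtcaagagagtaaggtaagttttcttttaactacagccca
Vcan: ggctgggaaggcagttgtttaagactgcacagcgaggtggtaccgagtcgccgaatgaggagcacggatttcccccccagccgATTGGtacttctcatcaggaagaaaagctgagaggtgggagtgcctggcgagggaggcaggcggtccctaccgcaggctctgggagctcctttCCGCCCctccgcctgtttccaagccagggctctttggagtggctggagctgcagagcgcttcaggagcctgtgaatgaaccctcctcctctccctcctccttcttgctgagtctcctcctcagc

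Both windows hold 1 CCAAT match, on the strand opposite to that printed, at -130 in Lum and -167 in Vcan counted from the start at 0. Vcan also has a GGGCGG match at -74, and Lum has none. TATAAA is in neither. Of 33469 promoters of the same length 37.5% hold the first, 33.1% the GC box letters and 14.2% the TATA box letters on either strand. The G and C content was 50.7% for Lum and 61.0% for Vcan, with a median of 51.7% over all promoters. These matches describe letters in the window and no binding was measured.

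Hapln1, the link protein gene, had 0.438, 0.542 and 0.871 FPKM in older hearts, against 1.55, 1.65 and 6.61 FPKM at day 0. The older values were lower throughout, and day 0 library 3 stood out with 543 reads against 114 and 112 in the other day 0 libraries, whose mean was 1.60 FPKM. Hapln1 was not called (log2 fold change -1.21, SE 0.52, limma adjusted p = 0.191). Without that library the log2 fold change was -0.69 and the limma adjusted p 0.238. The authors' deposited table, which keeps the 6 libraries, gives -2.30 with an adjusted p of 0.00211. The scale of log2(FPKM + 1) shrinks this low gene, so the 2 sizes are not alike. With all 6 libraries limma gave -1.95 with a pseudocount of 0.1 (adjusted p = 0.159), and voom on recovered reads gave -2.18 (adjusted p = 0.0744). Other low genes that were highest in that library included the cartilage proteoglycan gene Acan (1.65 FPKM, against at most 0.609 in older hearts and 0.917 in the other day 0 libraries) and Optc, of opticin (3.74 FPKM, against at most 0.396 in older hearts and 0.145 in the other day 0 libraries). Col2a1, the collagen gene that defines cartilage, reached 0.527 FPKM there. The cartilage and tendon markers were mixed in that library. Matn1 (0.390 FPKM) and Sox9 (12.6 FPKM) were also highest there. Comp was listed at 0 there, as in day 0 libraries 1 and 2 and older library 2. Scx had its lowest value of any library there (1.62 FPKM). The source of these transcripts was not tested.

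**Figure D2:**
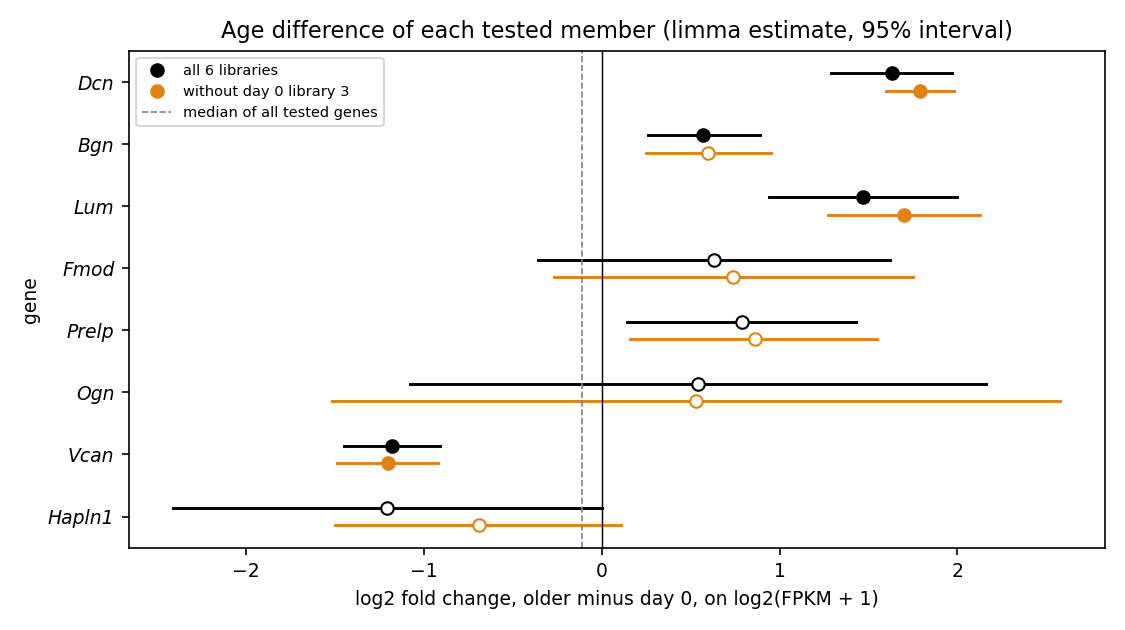
limma log2 fold change (older minus day 0) of each tested gene with its 95% interval, not adjusted over genes, for all 6 libraries (black) and without day 0 library 3 (orange); filled points have an adjusted p under 0.05 and the dashed line is the median of all tested genes, -0.11. Dcn, Lum and Vcan keep filled points in both fits, Bgn does not, and the intervals of Ogn and Fmod in both fits, and of Hapln1 without day 0 library 3, include 0.

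After each library was centred on its median gene, the log2 fold changes were 1.75 for Dcn, 1.59 for Lum, 0.69 for Bgn, 0.90 for Prelp, 0.75 for Fmod and 0.66 for Ogn. They were -1.06 for Vcan and -1.09 for Hapln1 on the same scale. No sign changed, and Dcn, Lum, Bgn and Vcan were again the genes past the threshold. The authors' deposited table gives 1.75 for Dcn, 1.57 for Lum, 0.71 for Bgn and -1.10 for Vcan, with adjusted p of at most 0.000212, in a comparison where it calls 6.26% of genes higher and 5.53% lower.

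The order of the members differed between ages. In older hearts it ran Dcn, Lum, Bgn, Vcan, Prelp, Ogn, Fmod, Hapln1 and Aspn by mean FPKM. At day 0 it ran Dcn, Vcan, Bgn, Lum, Hapln1, Prelp, Ogn, Fmod and Aspn. In older hearts the ranges of neighbours overlapped for Prelp and Ogn, for Ogn and Fmod, and for Hapln1 and Aspn. At day 0 they overlapped for Bgn and Lum, for Hapln1 and Prelp, for Ogn and Fmod, and for Fmod and Aspn. Hapln1 stood above Prelp at day 0 through library 3, without which the day 0 means were 1.60 FPKM for Hapln1 and 2.31 FPKM for Prelp. Ogn stood above Fmod in older hearts through library 2, as its other older values were below every older value of Fmod.

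Versican took a much smaller share of these transcripts in older hearts. Vcan made up 6.08%, 5.43% and 6.36% of the summed FPKM of the 9 genes in the older libraries, against 28.8%, 30.4% and 22.7% at day 0. The share of Dcn was 56.8%, 55.3% and 55.2% in older libraries, against 31.5%, 35.8% and 37.7% at day 0. Bgn held a smaller share although its level was higher, with 12.5% to 15.8% in older hearts and 16.98% to 20.7% at day 0. Hapln1 held 0.116% to 0.237% in older hearts and 0.837% to 3.01% at day 0. The sum itself was 372 ± 4.75 FPKM in older hearts and 191 ± 26.2 FPKM at day 0 (SD, n = 3 each). These shares follow from the same values as the tests above and carry no test of their own.

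**Figure D3:**
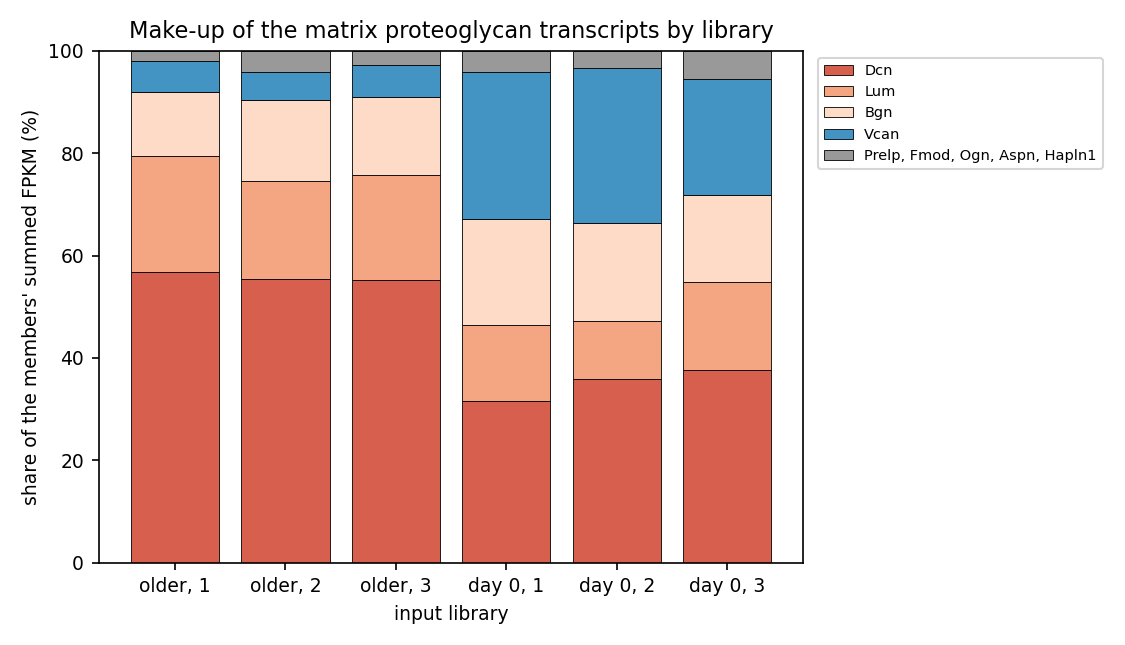
Stacked bars of each gene's share (%) of the summed FPKM of the 9 genes, per input library, older left of day 0. Vcan (blue) takes 5.43% to 6.36% in older libraries and 22.7% to 30.4% at day 0, and Dcn, Lum and Bgn together take most of the rest.

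Ratios within a library do not depend on how libraries are scaled. The summed FPKM of the small leucine-rich genes over that of Vcan was 15.4, 17.4 and 14.7 in older libraries, against 2.44, 2.26 and 3.27 at day 0. The mean ratios stood 5.96-fold apart, and 4.78-fold without Dcn in the sum. Leaving out any 1 library moved the first value to between 5.55 and 6.74. Dcn alone was 8.69 to 10.2 times Vcan in older hearts and 1.09 to 1.66 times Vcan at day 0.

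Among the small leucine-rich genes, the ratio of Dcn to Lum overlapped between ages and the ratios to Bgn did not. Dcn over Lum was 2.51, 2.88 and 2.69 in older libraries, against 2.13, 3.13 and 2.20 at day 0, with day 0 library 2 the highest of all 6. Dcn over Bgn was 4.53, 3.50 and 3.64 in older libraries, against 1.52, 1.88 and 2.22 at day 0, with no overlap. Lum over Bgn was 1.21 to 1.80 in older hearts and 0.602 to 1.011 at day 0. With 3 libraries per age these ratios are described and not tested.

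The same ratios were taken against Pdgfra, a growth factor receptor of fibroblasts, the main makers of this matrix. Pdgfra averaged 38.6 ± 5.09 FPKM in older hearts and 15.8 ± 2.94 FPKM at day 0 (SD, n = 3 each; log2 fold change 1.25, limma adjusted p = 0.00761). Dcn over Pdgfra was 6.40, 5.31 and 4.66 in older libraries, against 3.63, 4.74 and 4.46 at day 0, and the ranges overlapped. Lum over Pdgfra overlapped too (1.73 to 2.55 in older hearts, 1.51 to 2.03 at day 0). Bgn over Pdgfra was lower in older hearts, at 1.28 to 1.52 against 2.01 to 2.52 at day 0. Vcan over Pdgfra was 0.520 to 0.686 in older hearts and 2.68 to 4.02 at day 0. These ratios depend on the marker, and the same were taken to each of the 9 tested fibroblast markers after seeing the data. Dcn was higher in older hearts with no overlap against 6 of them, overlapped for 2 (Pdgfra and Mfap5) and was lower against 1 (Pi16). Of those 6 markers only Col1a1 was itself called, and a ratio to a marker that changes little follows the values of Dcn. Lum was higher against 6, overlapped for Pdgfra and was lower against 2, and Bgn was higher against 3, overlapped for 3 and was lower against 3. Against Ddr2, which was not called, Dcn was 16.03 to 23.0 in older hearts and 5.34 to 5.83 at day 0. Vcan was lower against 7 markers and overlapped for 2 (Tcf21 and Thy1). All ratios of a gene share its own values, so these counts are a description and not separate pieces of support. In RNA of whole tissue, more cells of a type and more RNA per cell cannot be told apart.

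**Figure D4:**
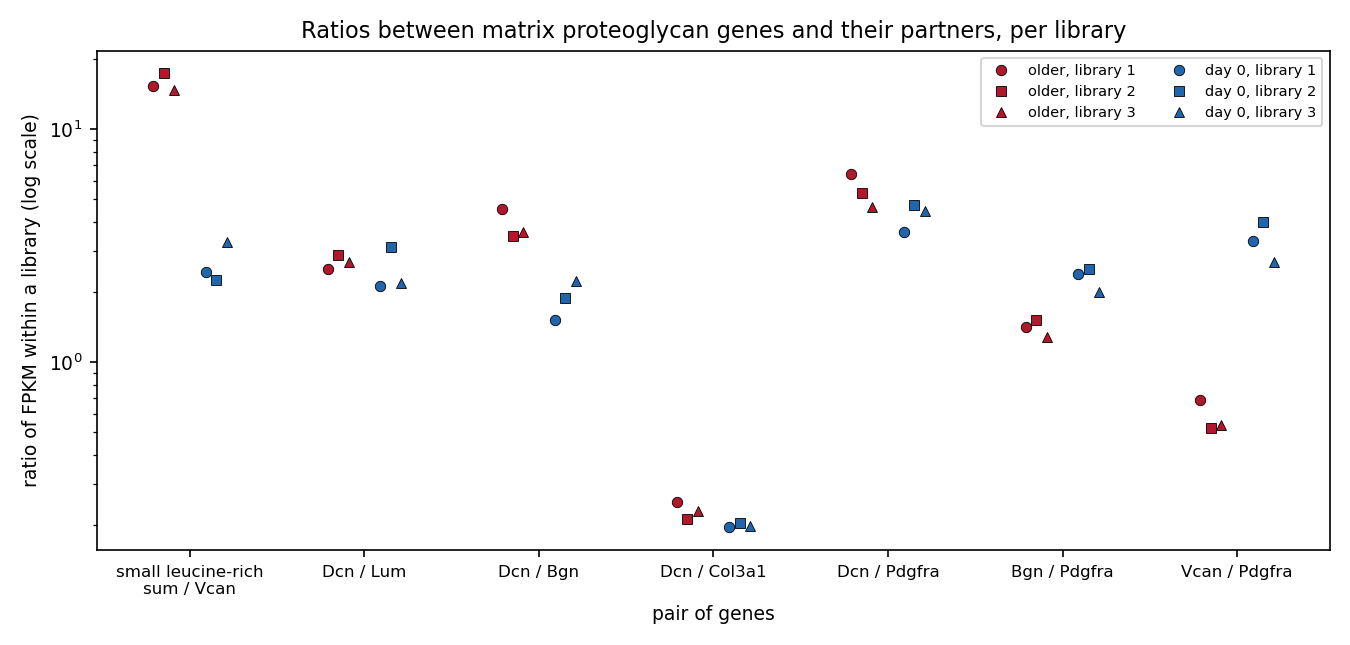
Ratios of FPKM within each input library (log axis), older in red left of day 0 in blue, with library numbers as marker shapes. The sum of small leucine-rich genes over Vcan lies at 14.7 to 17.4 in older and 2.26 to 3.27 in day 0 libraries. Dcn over Lum and Dcn over Pdgfra overlap between ages. Dcn over most other fibroblast markers, not drawn, does not overlap, but those ratios share the values of Dcn.

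Markers of several cell types were called along with these genes. Of 9 tested fibroblast markers 4 rose (Pdgfra, Col1a1, Pi16 and Mfap5) and none fell, with 5 higher without day 0 library 3 and a median log2 fold change of 0.40. Their summed level was 845 to 952 FPKM in older hearts and 542 to 759 at day 0. It was carried by Col1a1, which is also among the collagen genes, and Postn (248 ± 20.7 FPKM in older hearts and 189 ± 34.1 FPKM at day 0, SD, n = 3 each), while Gsn averaged 86.0 FPKM in older hearts and 110.8 FPKM at day 0. Tcf21, a fibroblast transcription factor, and the collagen receptor gene Ddr2 were not called (-0.39 and -0.03, limma adjusted p = 0.466 and 0.936). The log2 fold change was negative in 4 of the 9 markers. Of 6 endothelial markers Cdh5, of the endothelial cadherin, rose to 126 ± 11.1 FPKM in older hearts, against 71.3 ± 8.89 FPKM at day 0 (SD, n = 3 each; 0.81, limma adjusted p = 0.0108), and 4 had an unadjusted p under 0.05. Of 6 cardiomyocyte markers Myh6, the alpha myosin heavy chain, rose to 7572 ± 583 FPKM in older hearts, against 4499 ± 449 FPKM at day 0 (SD, n = 3 each; 0.75, limma adjusted p = 0.0118). Of 7 mural cell markers Acta2 and Cnn1 fell (-1.68 and -2.91) and Rgs5 rose (1.85). With 1 library left out, Myh6 and Rgs5 each lost their call in 4 of the 6 fits. Mfap5 lost it in 3, Cdh5 in 2 and Pi16 in 1 (limma adjusted p up to 0.0823 over these 5 genes). Pdgfra, Acta2 and Cnn1 kept theirs in every fit. None of the 4 epicardial and 5 macrophage markers tested was called by limma or by voom on recovered reads, and at an unadjusted p under 0.05 limma gave 0 and 1 of them. That unadjusted cut was passed by at least 3384 of all 13117 tested genes, so these counts of markers are a description. Epicardial markers summed to 15.1 to 21.6 FPKM in older hearts and 18.9 to 21.4 at day 0. Cartilage and tendon markers summed to 12.1 to 15.6 FPKM in older hearts and 11.5 to 16.8 at day 0, and Matn1 was listed at 0 in all but 1 library. The part of cell make-up in the proteoglycan differences was not tested.

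Some of the collagens that these proteoglycans decorate were higher as well. Of 9 tested fibrillar and fibril-associated collagen genes Col3a1 (1.43), Col14a1 (1.15) and Col1a1 (0.83) rose by limma and none fell, with a median log2 fold change of 0.60, against -0.11 over all tested genes. By voom on recovered reads 4 were higher and 1 lower, Col12a1, with 3.91 ± 0.595 FPKM in older hearts and 9.97 ± 4.62 FPKM at day 0 (SD, n = 3 each; limma log2 fold change -1.08, adjusted p = 0.0876, voom adjusted p = 0.00746). Without day 0 library 3 there were 5 higher. Col3a1, of type III collagen, had 855, 969 and 884 FPKM in older hearts, against 299, 296 and 419 FPKM at day 0, and the groups did not overlap (limma adjusted p = 0.00258). Dcn over Col3a1 was 0.212 to 0.250 in older libraries and 0.195 to 0.204 at day 0, a difference of means of 1.16-fold. Dcn over Col1a1 was 0.383 to 0.494 in older hearts and 0.229 to 0.260 at day 0. Col1a1 was lost as a call without any 1 library except day 0 library 3 (limma adjusted p up to 0.134). Col1a2, the other type I collagen gene, had 162, 116.5 and 59.1 FPKM in older hearts, against 68.0, 35.5 and 129 FPKM at day 0. The ages overlapped and Col1a2 was not called (log2 fold change 0.60, limma adjusted p = 0.4995).

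Matrix proteins that bind versican went in both directions. Of 6 tested, Fbln1 (1.56) and Fbn1 (0.69) rose and Fbn2 (-1.11) fell, with a median of 0.08. Fibulin-1, from Fbln1, is also a cofactor in versican cleavage, and it had 20.9, 20.3 and 18.6 FPKM in older hearts, against 5.13, 5.13 and 8.39 FPKM at day 0. The older values were all higher (limma adjusted p = 0.00673). Fbn2, the gene of the fibrillin of developing tissue, averaged 27.4 ± 2.30 FPKM in older hearts and 61.0 ± 12.3 FPKM at day 0 (SD, n = 3 each), on the same side as Vcan. Its counterpart Fbn1 lost its call in 5 of the 6 fits with a library left out (limma adjusted p up to 0.0830).

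Versican is cut by ADAMTS proteases. Of 7 tested, Adamts5 rose, with 15.9, 11.6 and 13.1 FPKM in older hearts, against 5.08, 7.44 and 6.27 FPKM at day 0 (log2 fold change 1.0, limma adjusted p = 0.0275). That call was lost with any 1 library left out (limma adjusted p up to 0.108). Adamts9 had 10.01, 9.94 and 9.95 FPKM in older hearts, against 21.5, 19.4 and 13.3 FPKM at day 0 (-0.77, limma adjusted p = 0.0569). Without day 0 library 3, Adamts1 was called higher (0.68) and Adamts9 lower (-0.97), at limma adjusted p of 0.0353 and 0.0186. Both were named after seeing their values. Voom on recovered reads called Adamts5 higher and Adamts9 lower among the 7 (adjusted p = 0.00613 and 0.00528). The list median was -0.33.

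Hyaluronan genes were mostly not called. Of 12 tested, Hmmr, a hyaluronan receptor that also serves the mitotic spindle, fell to 9.23 ± 1.97 FPKM in older hearts, against 16.5 ± 1.36 FPKM at day 0 (SD, n = 3 each; log2 fold change -0.79, limma adjusted p = 0.0470). Its call was lost with any 1 library left out (limma adjusted p up to 0.132) and after centring on the median gene. Has2, the synthase that makes the hyaluronan of the developing heart, had 1.03, 1.32 and 0.893 FPKM in older hearts, against 1.07, 1.83 and 2.04 FPKM at day 0. The groups overlapped (log2 fold change -0.33, limma adjusted p = 0.626). The receptor gene Cd44 was not called either (0.04, limma adjusted p = 0.965). Voom on recovered reads called 2 of the 12 lower, Hmmr and Cemip2 (adjusted p = 0.0258 and 0.0102), and none higher. Cemip2 had 7.69, 8.04 and 7.16 FPKM in older hearts, against 11.7, 11.6 and 13.3 FPKM at day 0 (-0.61, limma adjusted p = 0.0600). It was named after seeing its values. In 9 of the 12 the log2 fold change was negative, and the list median was -0.43.

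Enzymes that build the sugar chains showed a single call. Of 20 tested linker and chondroitin or dermatan chain enzymes only Chsy1, a chondroitin synthase that extends the chains, was called by limma, and it fell to 17.1 ± 2.71 FPKM in older hearts, against 36.7 ± 6.64 FPKM at day 0 (SD, n = 3 each; -1.05, limma adjusted p = 0.0168). It lost its call in 5 of the 6 fits with a library left out (limma adjusted p up to 0.0725). Voom on recovered reads called 1 of the 20 higher (Chst11, adjusted p = 0.0482) and 2 lower (Chsy1 and Pxylp1, with adjusted p = 0.000545 and 0.0368). In 14 of the 20 the log2 fold change was negative, with a median of -0.22. None of 3 tested keratan sulfate enzymes was called by limma, and voom on recovered reads called 1 lower. By limma 1 of the 3 had an unadjusted p under 0.05, as did at least 3384 of all 13117 tested genes.

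Few relatives of the 10 genes were measurable. Among other small leucine-rich genes 6 of 10 names have a row and 2 passed the filter, Chad (log2 fold change 0.42) and Tsku (0.20), with limma adjusted p of 0.396 and 0.772, and no call by voom. Neither had an unadjusted p under 0.05. None of the other hyaluronan-binding proteoglycan and link protein genes reached a mean of 1 FPKM. Of 14 other proteoglycans tested 2 rose, Srgn, the proteoglycan of blood cell granules (1.66), and Tgfbr3, the TGF-beta co-receptor betaglycan (0.53). Without day 0 library 3 only Srgn was called (limma adjusted p = 0.0401). With 1 library left out, Srgn lost its call in 4 of the 6 fits (limma adjusted p up to 0.0708) and Tgfbr3 in all 6 (up to 0.132).

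**Figure D5:**
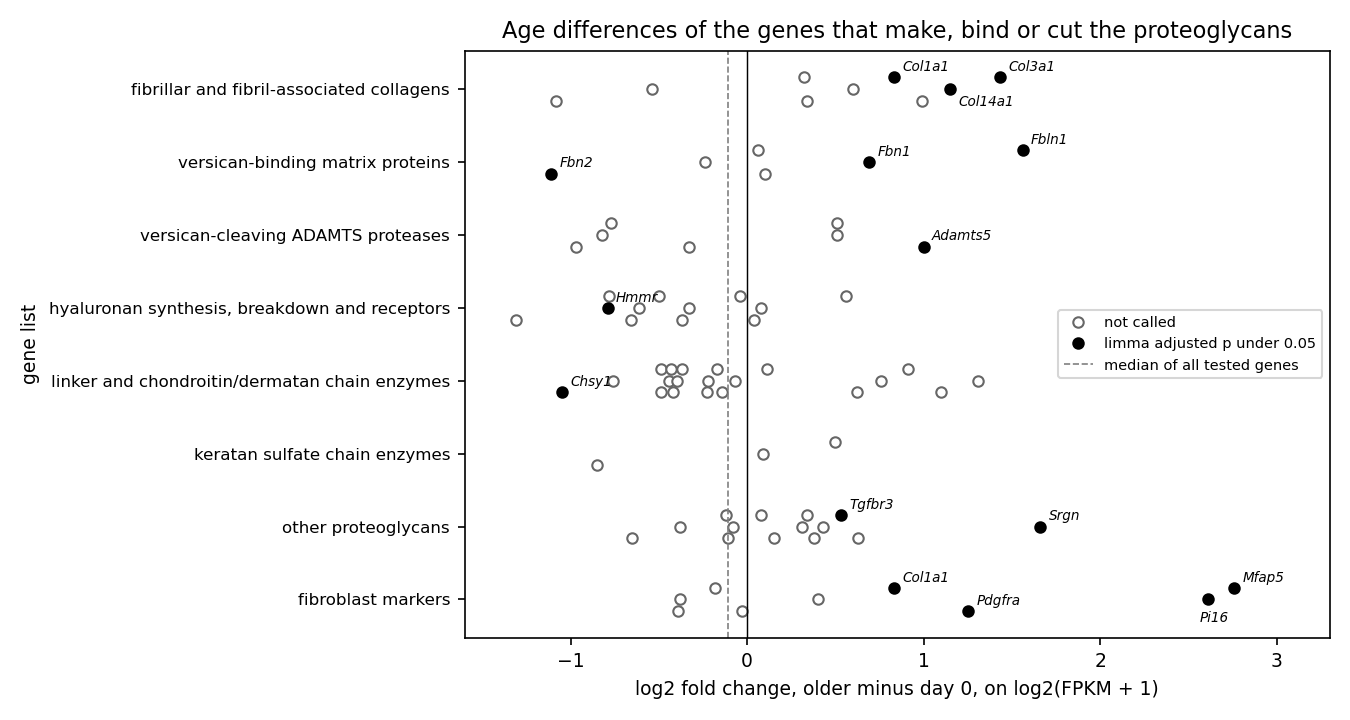
limma log2 fold changes (older minus day 0) of tested genes in 8 lists, each point a gene, filled where the adjusted p is under 0.05; the dashed line is the median of all tested genes, -0.11, and vertical jitter has no meaning. Called collagens and fibroblast markers lie right of 0, and Fbn2, Hmmr and Chsy1 are the called genes left of it.

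Several of these genes lie next to each other in the genome, by the order of protein-coding genes in RefSeq for the assembly GRCr8. Dcn and Lum are neighbours on chromosome 7. Beyond Dcn lies Btg1, an antiproliferative gene, with 69.7 ± 3.64 FPKM in older hearts and 63.4 ± 10.1 FPKM at day 0 (SD, n = 3 each; log2 fold change 0.15, limma adjusted p = 0.544). Epyc, 2 genes beyond Lum, had at most 1.33 FPKM in older hearts and 0.758 at day 0. Vcan and Hapln1 are neighbours on chromosome 2, where Xrcc4, a DNA repair gene on the other side of Vcan, was not called (-0.24, limma adjusted p = 0.601) and Edil3, beyond Hapln1, had at most 0.712 FPKM in any library. Prelp and Fmod are neighbours on chromosome 13, and Ogn and Aspn lie 2 genes apart on chromosome 17.

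Over the 6 libraries, the genes most like Dcn and Vcan were found by the root mean square difference of log2(FPKM + 1) profiles, each centred on its mean, among 8999 other tested genes averaging 5 FPKM or more. Nearest to Dcn were Fbln1 (0.0673), Pde4dip (0.0844) and Col3a1 (0.123). Nearest to Vcan were Cryl1 (0.0490), Ndrg4 (0.0726) and Myl6 (0.0839). Among the members themselves, Dcn and Lum were the closest pair (0.196) and Bgn and Prelp followed (0.228). Vcan was nearest to Hapln1 (0.551) and almost as near to the small leucine-rich gene Aspn (0.558), which had few reads. Both distances were well above those of the closest pairs. All genes share the same 6 libraries, so this ranking describes profiles and adds no test.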

How the data were processed

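Input RNA of 6 heart libraries was analysed, and the 6 pull-down libraries were not analysed here. The deposited values are FPKM, 1 column per library, as the values themselves show. HISAT2, HOMER 4.10 and rn5 are listed, without a role, in the submitters' processing notes. Neither the counter, the annotation nor the strand of counting is given there. The FPKM of each gene moved in whole steps, which gave whole reads for 100% of 16898 genes (largest relative misfit 1.8e-14). In 976 genes the step found held more than 1 read, and the reads were rescaled so that the gene's length was whole. On simulated reads 100% of genes were recovered up to a common factor. Read numbers give counting error only. The authors' deposited log2 fold change and p-value columns are quoted as theirs.

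Values were tested on log2(FPKM + 1) with limma 3.58.1 in R 4.3.3 (lmFit and eBayes with a trend), with genes of a mean of at least 1 FPKM (13117 tested, 3781 left out) and Benjamini-Hochberg adjustment at 0.05. On simulated reads for this comparison, with 13106 genes fitted, 30 of 99 genes changed 2-fold and 99 of 100 changed 4-fold were called, with 14 unchanged genes. The simulated reads had the same dispersion of 0.05 for every gene and no outlying library. The real libraries may differ from this, so these rates need not hold for them. The members and lists were chosen with earlier results of these data known. The text names the 10 members, called list genes at either end of each list, the nearest profiles to Dcn and Vcan, the neighbouring genes and markers near 0, by rule. Uncalled list genes, such as Tcf21, Has2, Cd44, Adamts9 and Chst11, were named outside that rule after their values were known. Alternatives were pseudocounts, filters, scalings, no trend, voom, the replicate number as a block and each library left out. Protein features were planned and not analysed here.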

Additional observations from a re-analysis of the deposited data

How the results depend on the processing

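Dcn, Lum and Vcan kept their direction and call under all 10 alternatives that keep the 6 libraries, the authors' deposited table among them (log2 fold change 1.58 to 1.79, 1.35 to 1.59 and -1.22 to -1.06). With 1 library left out, the log2 fold changes were 1.54 to 1.79 for Dcn, 1.24 to 1.70 for Lum (called in 2 of 6 fits), 0.50 to 0.67 for Bgn (called in none, limma adjusted p from 0.0570), 0.41 to 0.80 for Fmod, -0.23 to 1.07 for Ogn, 0.65 to 0.92 for Prelp, -1.22 to -1.12 for Vcan and -1.48 to -0.69 for Hapln1. Ogn turned to -0.23 without older library 2. Bgn stayed at 0.57 but was not called without the trend (limma adjusted p = 0.101) or with the replicate block (0.108). The authors' deposited table calls Prelp (1.13) and Hapln1 (-2.30), so 2 members are lower there. Members called higher were 1 to 2 with a library left out, and 1 was lower each time. Of all genes, 299 were called higher and 370 lower without the trend, 725 and 1106 by voom on recovered reads, 217 and 284 with the replicate block, 617 and 464 after median centring, 620 and 479 after quantile normalization, 1058 and 934 in the authors' deposited table, and 145 to 484 and 218 to 646 with a library left out. The ratio of the small leucine-rich sum to Vcan was 4.78-fold apart without Dcn, and 5.55 to 6.74 with a library left out. Same-numbered libraries did not deviate together (correlations -0.036, -0.003 and -0.050), so the block shares only a number. Depth limited Aspn most (30 reads in older hearts, 43 at day 0). The cause of these changes was not tested.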

Other observations

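Among the tested hyaluronan and sugar chain enzyme genes that limma did not call, 4 had the largest log2 fold changes in size, and they are named here for those values. In each the ages did not overlap, as in 12.2% (older above) and 20.3% (older below) of all tested genes. Chst11, Chst12 and Ptx3 passed the filter on low genes only through the age at which they are high, so a large difference was favoured in advance. Chst11, a chondroitin 4-O-sulfotransferase gene, had 2.88, 1.06 and 1.71 FPKM in older hearts, against 0.275, 0.0745 and 0.0309 FPKM at day 0 (log2 fold change 1.31, limma adjusted p = 0.127, voom adjusted p = 0.0482). Its relative Chst12 had 5.31, 2.001 and 1.57 FPKM in older hearts, against 0.890, 0.735 and 0.494 FPKM at day 0 (1.10, limma adjusted p = 0.175). Xylt1, which adds the first sugar of the chain, had 4.24, 2.75 and 4.77 FPKM in older hearts, against 1.79, 1.08 and 1.95 FPKM at day 0 (0.91, limma adjusted p = 0.129). Ptx3, whose product cross-links hyaluronan matrices, had 0.295, 0.549 and 0.588 FPKM in older hearts, against 2.28, 3.08 and 2.65 FPKM at day 0 (-1.31, limma adjusted p = 0.0664).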
